A study of Mus musculus with 4 samples.

Results

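Glycolytic enzyme genes were examined in mouse embryonic fibroblasts, cultured cells grown out of embryos. The members were 10 enzyme genes (Ldha, Pgk1, Eno1, Aldoa, Hk1, Hk2, Pfkl, Tpi1, Pgam1 and Gpi1), and a probe set counted as a member when its annotation named exactly 1 gene symbol and that symbol was among them. This gave 10 of the 12488 probe sets on the array, covering 8 of the 8251 genes represented. Hk2 and Aldoa had 2 probe sets each and the other members 1. Eno1 and Gpi1 had no probe set annotated to that symbol alone and so have no expression values here, although their promoters were searched. Of the measured members, Hk1 and Pfkl lie on chromosome 10, Hk2 and Tpi1 on chromosome 6, Aldoa and Ldha on chromosome 7, Pgam1 on chromosome 19 and Pgk1 on chromosome X.

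The study crossed genotype with treatment on single-colour Affymetrix U74Av2 oligonucleotide arrays, comparing the response of fibroblasts to tumour necrosis factor (TNF) with and without Xiap, an X-linked gene that encodes an inhibitor of caspases. The 4 groups were Xiap knockout cells with TNF, unstimulated Xiap knockout cells, wild-type cells with TNF and unstimulated wild-type cells. TNF was given to confluent cultures at 20 ng/ml for 4 hours, and all groups were grown in the same serum-containing medium. The design of the knockout allele, the strain, the passage number and the number of embryos behind each culture are not stated in the sources used here. Each group was measured on 1 array, so no ratio of 2 arrays has replicates behind it, and precision is limited by how few arrays there are.

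Each probe set has 1 deposited value per array, its brightness on a linear scale, here the signal. Values under 92.5, the 40th percentile of the non-control signals, were raised to that floor. A gene was called measured in a comparison if either array exceeded the floor. All 11 fibroblast marker genes were above the floor on at least 1 array, although the single probe set of Vim, the vimentin gene, reached at most 94.5. The ratio of 3' to 5' control probe sets, which rises as RNA is degraded, ranged over the arrays between 0.757 and 0.815 for Gapdh and between 1.08 and 1.17 for Actb. Signals of Xiap were low (120 and 180.5 with and without TNF in knockout cells, and 126 and 239 in wild-type cells), and whether its probes lie in the deleted part is not known, so it does not check the genotype labels. As a check of the treatment, 6 of 6 genes known to respond to TNF exceeded 2-fold in both genotypes, with Nfkbia 5.91-fold higher in knockout and 6.20-fold higher in wild-type cells.

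Glycolysis converts glucose to pyruvate in the cytosol. Hexokinases trap glucose in the cell by phosphorylation, phosphofructokinase commits it to the pathway, aldolase and triose phosphate isomerase yield the triose phosphates, phosphoglycerate kinase makes ATP, and lactate dehydrogenase regenerates NAD+ by reducing pyruvate to lactate. Many of these genes are known targets of hypoxia-inducible factor, which binds short elements with an ACGTG or GCGTG core, and of Myc, which binds the E-box CACGTG. Proliferating cells and cells short of oxygen commonly carry more of these transcripts.

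The 250 bases before the annotated start of 4 members are shown because these genes had the highest ratio of knockout to wild-type signal (Ldha and Pfkl), the only ratio below 1 in both states (Hk2), or the same number of ACGTG cores as Hk2 with the opposite direction (Pgk1). They are RefSeq sequences of the mouse build GRCm38.p6, 5' to 3' on the gene's strand. Capitals mark the ACGTG core, the GCGTG core or the E-box on either strand. They come from chr7:46845554-46845803 (plus strand) for the first of the start sites of Ldha, chrX:106186850-106187099 (plus strand) for Pgk1, chr10:78009808-78010057 (minus strand) for Pfkl and chr6:82774455-82774704 (minus strand) for Hk2.
Ldha: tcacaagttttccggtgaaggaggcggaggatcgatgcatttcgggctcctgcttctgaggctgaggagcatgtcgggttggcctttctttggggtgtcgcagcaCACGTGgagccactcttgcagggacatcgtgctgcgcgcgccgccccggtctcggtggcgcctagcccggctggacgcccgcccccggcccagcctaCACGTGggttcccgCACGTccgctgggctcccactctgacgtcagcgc
Pgk1: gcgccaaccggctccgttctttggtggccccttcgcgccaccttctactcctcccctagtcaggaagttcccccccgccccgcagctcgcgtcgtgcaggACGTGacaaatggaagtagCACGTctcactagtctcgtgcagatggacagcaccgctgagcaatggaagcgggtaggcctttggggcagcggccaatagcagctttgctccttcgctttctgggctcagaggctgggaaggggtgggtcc
Pfkl: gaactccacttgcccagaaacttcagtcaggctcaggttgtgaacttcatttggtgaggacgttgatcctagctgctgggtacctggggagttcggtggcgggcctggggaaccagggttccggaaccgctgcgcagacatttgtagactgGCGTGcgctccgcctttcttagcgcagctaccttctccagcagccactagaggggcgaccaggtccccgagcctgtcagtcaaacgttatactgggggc
Hk2: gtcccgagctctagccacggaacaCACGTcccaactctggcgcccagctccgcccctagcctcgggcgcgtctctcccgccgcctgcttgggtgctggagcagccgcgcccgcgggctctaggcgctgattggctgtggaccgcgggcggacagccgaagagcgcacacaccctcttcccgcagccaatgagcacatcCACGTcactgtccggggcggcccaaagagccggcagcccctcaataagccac

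The Ldha window held E-boxes whose first bases lay 145 and 48 bases before the start, and 1 further ACGTG core at -34. An E-box contains the ACGTG core on both strands, so each also counted as a core. Pgk1 had ACGTG cores at -150 and -131, Hk2 at -226 and -52, and Pfkl had 1 GCGTG core at -99. The search covered windows of 300 bases, from 250 before to 50 after each start, and the 10 member symbols all matched the RefSeq table with 16 windows, some of which overlap. ACGTG was present in 7 of the 16 windows (6 of 10 genes), against 19.6% of all 32851 promoter windows. GCGTG was present in 8 windows (5 genes), against 32.4% of all, and CACGTG in 1 window, that of Ldha, against 7.15% of all. Tpi1 and Gpi1 had none of the 3 motifs in this window. Such matches are descriptions of the sequence and were not tested as binding sites.

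**Figure D1:**
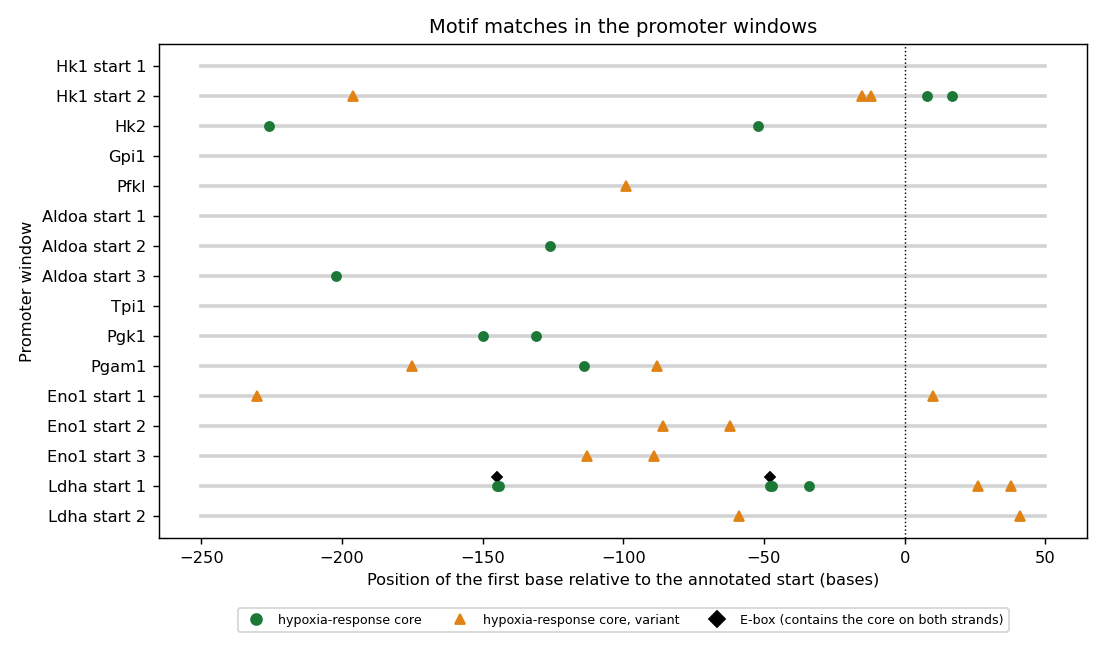
Positions of motif matches in the 16 promoter windows of the 10 member genes. The horizontal axis gives the first base of each match relative to the annotated start (dotted line) in bases, rows are windows, circles are ACGTG cores, triangles GCGTG cores and diamonds E-boxes. The E-boxes are both in the first window of Ldha, at -145 and -48.

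Ldha, Pfkl and Tpi1 were at least 1.5-fold higher in knockout than in wild-type fibroblasts both with and without TNF, Pgk1 was so without TNF, and the hexokinase gene Hk2 was at least 1.5-fold lower in both states. Aldoa, Pgam1 and Hk1 did not pass 1.5-fold in either state by their brightest probe sets. Without TNF, 4 of 8 member genes were at least 1.5-fold higher in the knockout, where 11.9% of 6062 measured genes were, and 1 was at least 1.5-fold lower, where 12.4% were. At 2-fold, 2 members were higher, against 4.55% of all genes. With TNF, 3 of 8 were at least 1.5-fold higher (15.9% of 5852 genes) and 1 at least 1.5-fold lower (11.7%). At 2-fold, 1 member was higher, against 5.62% of all genes. The median log2 ratio of knockout to wild-type over the members was 0.57 without and 0.44 with TNF, beside -0.01 and 0.07 over all measured genes. The members are bright, and among the brightest 1650 genes 11% were at least 1.5-fold higher in the unstimulated knockout. In RNA of whole cultures, a change in the kinds of cells present and a change in RNA per cell cannot be told apart.

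As a guide to the size of measurement error, 684 genes had exactly 2 probe sets above the floor on all arrays. The knockout to wild-type ratios given by the 2 probe sets of such a gene differed by a median of 1.20-fold without TNF and 1.21-fold with TNF. In 1 gene of 10 they differed by more than 1.69-fold without and 1.74-fold with TNF. This spread covers probes and not cultures. Ldha and Pfkl exceeded these limits in both states and Tpi1 without TNF, and the other members did not. The limits hold for a difference between 2 ratios and so are wider than the error of 1 ratio. The SD estimated for 1 probe set was 0.35 without and 0.38 with TNF on the log2 scale. A second guide was an additive model with genotype and TNF, fitted with limma over the 4 arrays and all 8228 measured probe sets. It has 1 residual degree of freedom, takes a difference of response between genotypes as error, and has no replicate cultures behind its p-values. In it, 7 of the 9 measured member probe sets differed by genotype at an adjusted p below 0.05, as did 19.4% of all probe sets. Of these, 6 were higher in the knockout and 1, that of Hk2, was lower. The count was 4 with the arrays scaled to equal medians (22.7% of all probe sets) and 3 with no intensity trend in the model (12.8%).

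Ldha, the lactate dehydrogenase subunit gene that favours conversion of pyruvate to lactate, had a signal of 10852 in unstimulated knockout and 4799 in unstimulated wild-type cells. With TNF it was 12161 in knockout and 6526 in wild-type cells. Both knockout arrays lay above both wild-type arrays. The share of all genes with this order, also given for other members below, was not computed. With 2 arrays per genotype such an order can arise without an effect of genotype. The ratio was 2.26 without and 1.86 with TNF, which placed Ldha at percentile 96.9 and 92.8 of all measured genes. Across both states Ldha rose in the knockout by 1.04 on the log2 scale (SE 0.10, limma adjusted p = 0.00168).

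Pfkl encodes the liver-type subunit of phosphofructokinase, the enzyme of the committed step. Its signal was 1600 in unstimulated knockout and 797 in unstimulated wild-type cells, and 2103 in knockout and 823 in wild-type cells with TNF. The ratios were 2.01 and 2.55, the second being the highest of any member with TNF, and both knockout values lay above both wild-type values. The limma effect was 1.18 (SE 0.13, adjusted p = 0.00253). For its relatives Pfkm and Pfkp, the muscle and platelet subunits, the log2 ratios were -0.24 and -0.48 without TNF and -0.06 and -0.04 with TNF. Neither was called by genotype in the limma fit (adjusted p = 0.531 and 0.47), and the difference between the 3 genes was not tested.

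Tpi1, which interconverts the triose phosphates, had signals of 6316 in unstimulated knockout and 3489 in unstimulated wild-type cells. With TNF they were 7007 in knockout and 4124 in wild-type cells. Both knockout arrays were again above both wild-type arrays, at ratios of 1.81 and 1.70. Tpi1 rose in the knockout by 0.81 (SE 0.09, limma adjusted p = 0.00239). Ldha, Pfkl and Tpi1 were the 3 member probe sets called by genotype under all 7 settings of the limma fit.

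Pgk1, whose product carries out the first ATP-yielding step, had signals of 3965 in unstimulated knockout and 2540 in unstimulated wild-type cells, and of 4394 in knockout and 3285 in wild-type cells with TNF. The ratio was 1.56 without and 1.34 with TNF, and the genotypes did not overlap. Pgam1, which moves the phosphate group of phosphoglycerate, had 5728 in unstimulated knockout and 4084 in unstimulated wild-type cells, and 5772 in knockout and 4250 in wild-type cells with TNF. Its ratios were 1.40 and 1.36, both under 1.5-fold. The limma effects were 0.53 for Pgk1 (SE 0.10, adjusted p = 0.0151) and 0.46 for Pgam1 (SE 0.09, adjusted p = 0.0152). With the arrays scaled to equal medians these adjusted p-values were 0.149 for Pgk1 and 0.277 for Pgam1, and with no intensity trend they were 0.0936 and 0.108, so that neither gene was called under either setting.

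Pgk1 lies on the X chromosome, and the cultures differed in transcripts linked to the sex chromosomes, as was known from earlier results of these data. Xist, transcribed from the inactive X chromosome, had signals of 1601 and 1232 in knockout cells with and without TNF, and 5.4 and 34.3 in wild-type cells. The Y-linked Eif2s3y had 9.1 and 2.8 in knockout cells, and 308 and 489 in wild-type cells. The median log2 ratio of knockout to wild-type without TNF was -0.02 over 170 measured X-linked genes and -0.01 over 5881 autosomal genes. The part of this difference in the Pgk1 result was not tested.

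Aldoa, the aldolase that splits the phosphorylated hexose, was measured by 2 probe sets that gave different sizes. The brighter had signals of 6988 in unstimulated knockout and 5391 in unstimulated wild-type cells, and 8130 in knockout and 6034 in wild-type cells with TNF. The other had 3581 in unstimulated knockout and 2318 in unstimulated wild-type cells, and 2296 in knockout and 2047 in wild-type cells with TNF. The knockout to wild-type ratios were thus 1.30 and 1.35 for the brighter and 1.55 and 1.12 for the dimmer probe set, all above 1. In the limma fit the effects were 0.40 for both, with an adjusted p of 0.0238 for the brighter and 0.0849 for the dimmer one. Both are probe sets of the manufacturer's family type, which can hybridise with related sequences, and the call of the brighter was lost with equal medians (adjusted p = 0.426) and with no intensity trend.

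Hexokinases act at the entry to the pathway, and neither hexokinase gene was higher in the knockout in both states. Hk2, which encodes the regulated hexokinase of muscle and fat, had 327 in unstimulated knockout and 522 in unstimulated wild-type cells, and 560 in knockout and 896 in wild-type cells with TNF. The genotypes overlapped, since knockout cells with TNF (560) lay above unstimulated wild-type cells (522). Hk2 was 1.59-fold lower in the knockout without TNF and 1.60-fold lower with TNF. Both values are within the 1.69-fold and 1.74-fold limits given above for the difference between 2 probe sets. In the limma fit it fell by 0.68 in the knockout (SE 0.16, adjusted p = 0.0344). The adjusted p was 0.0504 with no intensity trend. The other Hk2 probe set had signals of 5.7 to 12.9, below the floor on every array, and gave no ratio.

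Hk1, the widely expressed hexokinase gene, had 11273 in unstimulated knockout and 9816 in unstimulated wild-type cells, a ratio of 1.15. With TNF it had 7715 in knockout and 10593 in wild-type cells, 1.37-fold lower in the knockout. The genotypes overlapped, since the wild-type values lay between the knockout values. It was not called by genotype under any of the 7 limma settings (adjusted p = 0.623 in the fit above).

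**Figure D2:**
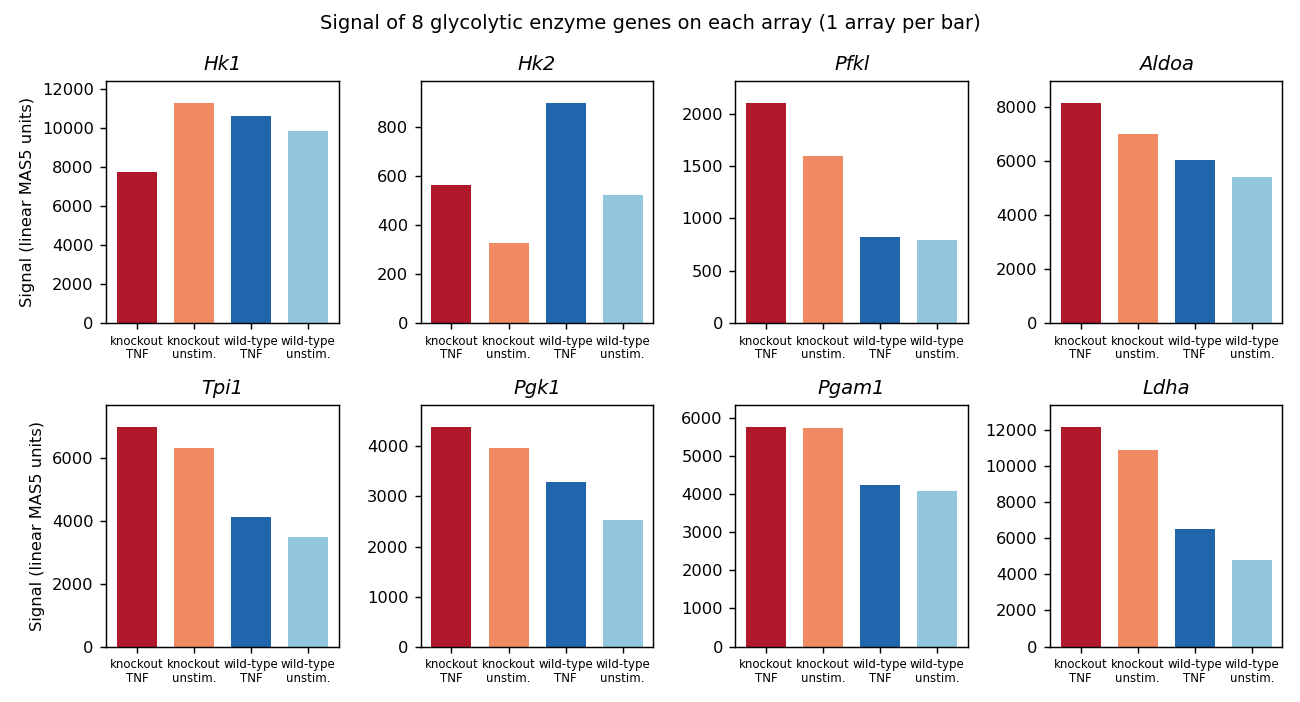
Signal of the 8 measured member genes on each array, in linear MAS5 units, with 1 bar per array and each gene shown by its brightest probe set. Both knockout bars stand above both wild-type bars for Pfkl, Aldoa, Tpi1, Pgk1, Pgam1 and Ldha. The share of all genes with this order of bars was not computed. Hk2 is highest in wild-type cells with TNF at 896, and its knockout bar with TNF stands above its unstimulated wild-type bar.

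**Figure D3:**
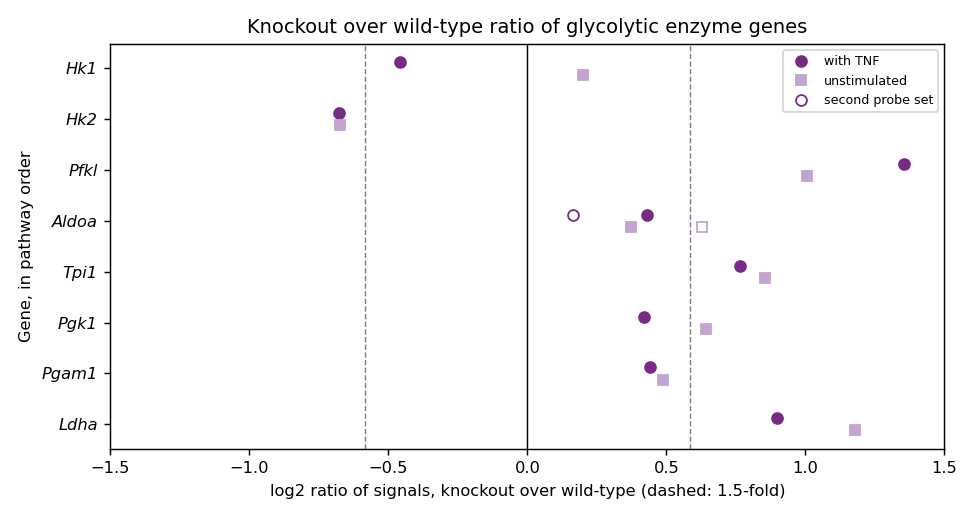
log2 ratio of knockout to wild-type signal for each member in pathway order, with TNF (circles) and unstimulated (squares). Open symbols are the second probe set of Aldoa and dashed lines mark 1.5-fold. Points for Hk2 lie near -0.67 in both states, and those for Pfkl at 1.01 and 1.35.

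A list of 17 further glycolytic genes had 8 measured without TNF, of which 1 passed 1.5-fold upwards and 1 downwards in the knockout, with a median log2 ratio of -0.06. With TNF, 7 were measured, with 1 higher and 1 lower and a median of -0.04. For this and the following lists, the shares of all measured genes are those given above. Without TNF they are 11.9% higher and 12.4% lower, and with TNF 15.9% and 11.7%. Pkm, the pyruvate kinase gene of most tissues, had 10688 in unstimulated knockout and 10917 in unstimulated wild-type cells, and 11552 in knockout and 11631 in wild-type cells with TNF. Gapdh was read only by control probe sets and by probe sets shared with other symbols. Its 3' control probe set had 15864 in unstimulated knockout and 14939 in unstimulated wild-type cells, beside a brightest signal of 26359 on any array.

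Bpgm, which makes bisphosphoglycerate in a side branch, had 304 in unstimulated knockout and 158 in unstimulated wild-type cells, a ratio of 1.93, and was 2.01-fold higher with TNF. Eno3, the muscle enolase gene, had 690 in unstimulated knockout and 1487 in unstimulated wild-type cells, 2.15-fold lower, and was 2.47-fold lower with TNF. Both were called by genotype in the limma fit (effects 0.98 and -1.21, SE 0.22 and 0.13, adjusted p = 0.0266 and 0.00228).

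Of the 18 genes of glucose and lactate transport and flux control, 9 were measured without TNF, with 1 past 1.5-fold upwards (Bsg) and 1 downwards (Slc16a1, a lactate transporter gene, at least 1.61-fold lower in the knockout). With TNF, 8 were measured, with 2 higher (Bsg and Pdk4, the latter at least 1.59-fold) and 1 lower (Pfkfb3, at least 1.63-fold). The median log2 ratio of the list was 0.38 without and 0.15 with TNF. Bsg, which encodes a chaperone of lactate transporters, was 1.67-fold higher without and 1.65-fold higher with TNF (limma effect 0.73, SE 0.09, adjusted p = 0.00309). The glucose transporter gene Slc2a1 had 468 in unstimulated knockout and 338 in unstimulated wild-type cells, and 556 in knockout and 625 in wild-type cells with TNF, so its ratio of 1.38 without TNF was 0.89 with TNF.

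Other genes known to respond to hypoxia went both ways. Of 15 measured on a list of 22, unstimulated knockout cells had 4 past 1.5-fold upwards and 4 downwards, and knockout cells with TNF had 5 upwards and 3 downwards. Their median log2 ratio was -0.18 without and -0.06 with TNF. Bnip3, a mitophagy receptor gene, was 3.09-fold and 6.90-fold higher, Ddit4, an inhibitor of mTOR signalling, 2.88-fold and 3.20-fold higher, and the prolyl hydroxylase gene P4ha1 2.04-fold and 1.64-fold higher, each without and with TNF. Vegfa, the vascular growth factor gene, was 1.64-fold and 2.29-fold lower, and Bhlhe40, a transcriptional repressor gene, 1.89-fold and 1.51-fold lower.

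Among 11 regulators of these genes, 9 were measured without TNF and Hif1a was the only one past 1.5-fold. With TNF, 8 were measured, with 2 higher (Hif1a and Vhl) and 1 lower (Myc). Vhl was 1.63-fold higher and Myc 2.44-fold lower in the knockout with TNF. Neither was called by genotype in the limma fit (adjusted p = 0.396 and 0.244). Hif1a, the oxygen-regulated subunit of hypoxia-inducible factor, had 10525 in unstimulated knockout and 5531 in unstimulated wild-type cells, and 10541 in knockout and 6938 in wild-type cells with TNF. Its ratios were 1.90 and 1.52, and its second probe set gave 1.93 and 1.57. Both are of the family type, which can hybridise with related sequences. Their signals were close, at 10525 and 10400 in unstimulated knockout cells, so the second may not be a separate reading. Hif1a rose in the knockout by 0.77 in the limma fit (SE 0.11, adjusted p = 0.00524). Transcript level does not measure the protein, whose amount is known to be set mainly by its breakdown.

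The genes of proliferation also differed between the cultures. Of 22 measured on a list of 26, 14 were at least 1.5-fold higher in unstimulated knockout cells and 15 with TNF, and none was at least 1.5-fold lower in either state, with median log2 ratios of 0.78 and 0.87. Top2a, a topoisomerase gene of dividing cells, was 3.44-fold and 3.26-fold higher without and with TNF, and the proliferation marker Mki67 3.27-fold and 3.11-fold higher. Kif11, a spindle motor gene, was 4.10-fold and 2.33-fold higher, and Rrm2, a ribonucleotide reductase subunit gene, 2.51-fold and 3.05-fold higher. The part of this difference in the glycolytic result was not tested.

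The 11 fibroblast markers summed to 84041 and 87999.7 with and without TNF in knockout cells, and to 84491 and 88436 in wild-type cells, sums carried by bright genes such as the collagens. Single markers differed both ways. Thy1, a surface glycoprotein gene, had 308.5 in unstimulated knockout and 1120.4 in unstimulated wild-type cells and was 3.63-fold lower without and 6.31-fold lower with TNF (limma adjusted p = 0.00171). Pdgfrb, a growth factor receptor gene, was 1.63-fold and 1.84-fold lower (limma adjusted p = 0.0162). S100a4, a calcium-binding protein gene, had 4106 in unstimulated knockout and 1351 in unstimulated wild-type cells and was 3.04-fold and 3.38-fold higher (limma adjusted p = 0.000215). Neural markers, of which 3 of 4 passed the floor on some array, summed to 4605 and 3652 in knockout cells, against 2614 and 2049 in wild-type cells, mostly from the brighter probe set of Tubb3, while Map2 never passed the floor. The dimmer probe set of Tubb3 went the other way, with 175 and 171 in knockout cells and 322 and 285 in wild-type cells. Leukocyte markers (4 of 8 past the floor, with Ptprc, Adgre1, Itgam and Tyrobp below it everywhere) summed to 2996 and 2894 in knockout and 1843 and 2547 in wild-type cells. Skeletal muscle markers (4 of 7, with Des, Myh3 and Tnnt3 below it everywhere) summed to 661 and 761.7 in knockout and 499 and 576 in wild-type cells. Epithelial (1 of 6), endothelial (2 of 5), adipocyte (2 of 3) and chondrocyte (2 of 3) markers summed to at most 789.9 on any array. The part of these in the glycolytic result was not tested, and with 1 array a group, the deletion and any other difference between the cultures cannot be told apart.

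**Figure D4:**
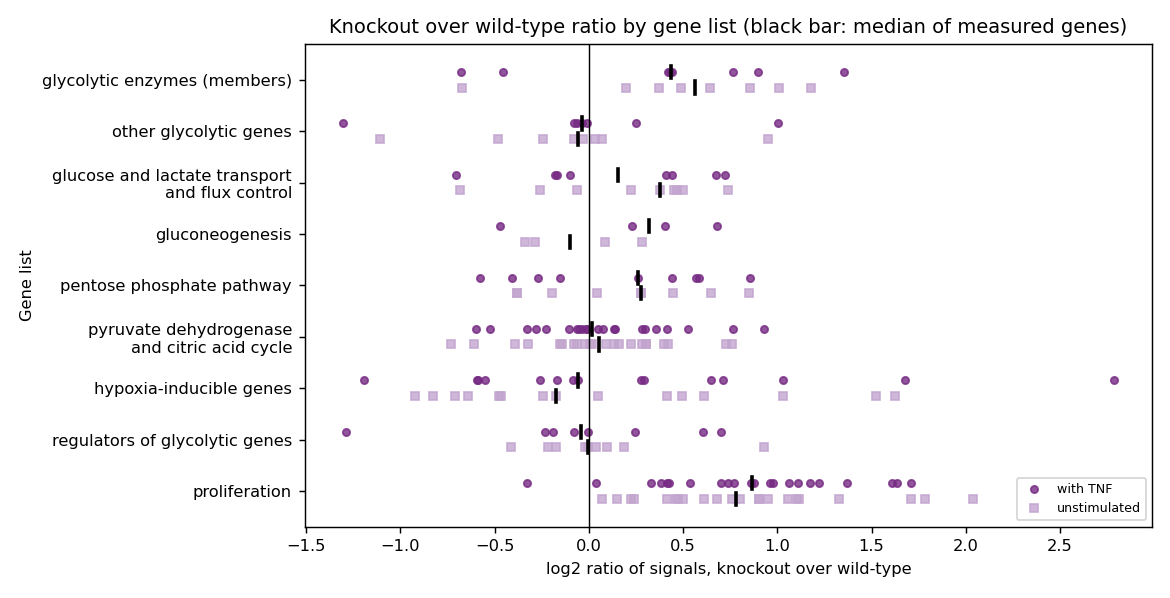
log2 ratio of knockout to wild-type signal for the measured genes of each list, with TNF (circles) and unstimulated (squares); black bars are medians. Medians are above 0 in both states for the member enzymes (0.44 with TNF and 0.57 unstimulated) and the proliferation genes (0.87 and 0.78). They are also above 0 for transport and flux control (0.15 and 0.38) and the pentose phosphate pathway (0.26 and 0.27). For pyruvate dehydrogenase and the citric acid cycle they are 0.02 and 0.05. The other glycolytic genes have medians of -0.04 and -0.06, and the gluconeogenesis genes 0.32 and -0.10.

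After 4 hours of TNF, Hk2 was the member gene with a ratio past 1.5-fold by its brightest probe set, and it was so in both genotypes. In knockout cells 1 of 8 member genes was at least 1.5-fold higher (3.85% of 5868 measured genes were) and 0 of 8 were at least 1.5-fold lower (2.97%). In wild-type cells 1 of 8 was at least 1.5-fold higher (6.29% of 5911) and 0 of 8 lower (13.2%). The median log2 ratio of TNF-treated to unstimulated signal over the members was 0.16 in knockout and 0.20 in wild-type cells, beside -0.04 and -0.10 over all measured genes. The members are bright, and over the brightest 1650 genes these medians were -0.02 and 0.03. Of those bright genes, 3.33% in knockout and 6.48% in wild-type cells were at least 1.5-fold higher, and 1.03% and 3.21% at least 1.5-fold lower. No member probe set was called for TNF in the limma fit, where 1.17% of all probe sets were, and 4 of 9 had an unadjusted p below 0.05, where 13.7% of all probe sets did.

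Hk2 had 560 with TNF and 327 without in knockout cells, a ratio of 1.71, and 896 with TNF and 522 without in wild-type cells, a ratio of 1.72. The values with TNF were higher in each genotype, but the knockout value with TNF and the wild-type value without were close. The wild-type ratio lies within 1.77-fold, the limit for the difference between 2 probe sets in that comparison. The knockout ratio exceeds the 1.44-fold limit for its own. The SD estimated for 1 probe set was 0.23 in knockout and 0.35 in wild-type cells on the log2 scale. The ratios placed it at percentile 97.6 and 95.8 of all measured genes. The limma effect of TNF on Hk2 was 0.78 (SE 0.16, adjusted p = 0.109), which missed the threshold, and over the 7 settings the adjusted p was 0.00107 to 0.212, below 0.05 under 3 of them.

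Ldha was 1.12-fold higher with TNF in knockout and 1.36-fold higher in wild-type cells, and Pgk1 1.11-fold and 1.29-fold higher in the same order. Pfkl was 1.31-fold higher with TNF in knockout and 1.03-fold in wild-type cells. Tpi1 and Pgam1 had ratios of 1.11 and 1.01 in knockout cells, and 1.18 and 1.04 in wild-type cells. All of these lie within the 1.44-fold (knockout) and 1.77-fold (wild-type) range that the probe sets of 9 in 10 genes kept to. The probe sets of Aldoa disagreed in sign, at 1.16 and 0.64 in knockout and 1.12 and 0.88 in wild-type cells, so no direction is given for it. Hk1 had 7715 with TNF and 11273 without in knockout cells, 1.46-fold lower. This lies just past the 1.44-fold limit, at percentile 3.7 of all measured genes. In wild-type cells Hk1 had 10593 with TNF and 9816 without, 1.08-fold higher and within the 1.77-fold limit.

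The wild-type array with TNF had a median signal of 150.0, lower than the 172 to 182 of the other arrays, and scaling all arrays to equal medians moved the median log2 TNF ratio of all genes in wild-type cells to 0.17, against -0.10 in the deposited scaling. Under it Ldha and Pgk1 joined Hk2 past 1.5-fold in wild-type cells, giving 3 of 8, a count with no share of all genes computed beside it. The size of the wild-type TNF ratios therefore depends on the scaling.

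**Figure D5:**
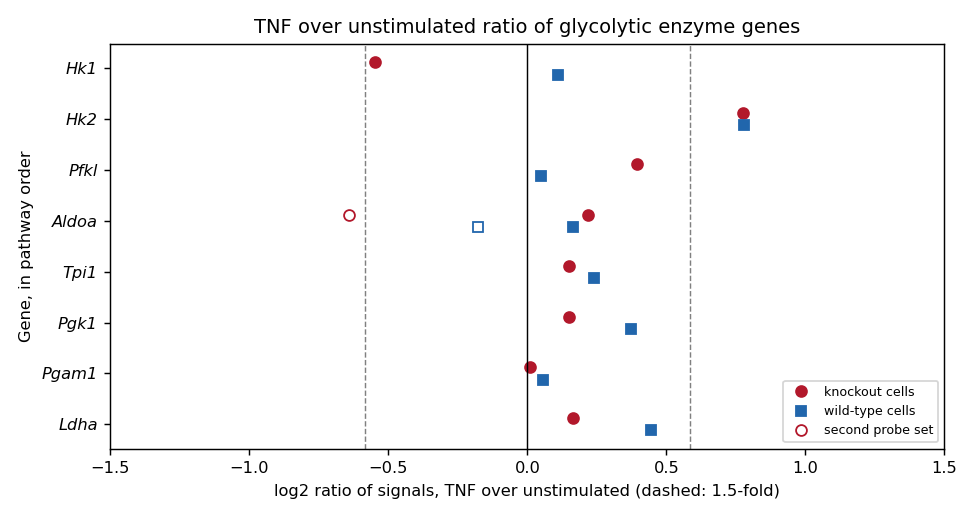
log2 ratio of TNF-treated to unstimulated signal for each member in pathway order, in knockout cells (circles) and wild-type cells (squares). Open symbols are the second probe set of Aldoa and dashed lines mark 1.5-fold. Hk2 lies at 0.78 in both genotypes, and Hk1 at -0.55 in knockout and 0.11 in wild-type cells.

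The TNF responses of the genotypes were also set against each other as the log2 ratio in knockout minus that in wild-type cells, which has no test with 1 array per group. Over the 8 members this difference had a median of -0.07 and a range of -0.66 (Hk1) to 0.35 (Pfkl), beside a median of 0.04 over 6174 genes. Of the 8 members, 1 passed 1.5-fold in either direction (Hk1), where 15.9% of all genes did. The value of Hk1 lies within 0.81 on the log2 scale, the limit that this difference kept to between the probe sets of 9 in 10 genes. For Hk2 the difference was -0.0049.

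Hk2 had the widest range over the 4 arrays of any member (1.45 on the log2 scale), and its pattern over them was compared with those of 6173 other genes by Euclidean distance between centred log2 signals. The nearest were Klf6 (distance 0.12), a zinc finger transcription factor gene, Ifngr2 (0.14), which encodes a chain of the interferon gamma receptor, Znrf1 (0.14), a ubiquitin ligase gene, Pim1 (0.16), which encodes a serine/threonine kinase, and Hivep2 (0.16), a zinc finger transcription factor gene. The distance rests on 4 arrays and is a description only.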

How the data were processed

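Total RNA of 4 cultures was hybridised to 4 arrays. The deposited data are linear intensities per probe set. The submitters' processing notes name MAS5, without a version or settings. All 4 columns have a 2% trimmed mean of 500.3, so the authors had scaled them. Arrays carry no read depth.

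Gene names came from the annotation table of the platform: 10833 had 1 symbol, 396 several and 1193 none, and 66 controls were left out. Of 8251 genes, 8237 matched RefSeq (GRCm38.p6) by Entrez identifier. Where a gene had several probe sets, the one brightest on average stood for it. Glycolytic transcripts such as Aldoa, Ldha, Pgk1, Pgam1 and Tpi1 have processed pseudogenes, so their probe sets may share hybridisation.

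Rescaling to that trimmed mean used factors that round to 1.0. Signals were then floored at 92.5 and converted to log2. Ratios of 2 arrays have no test. The additive fit used limma 3.58.1 (lmFit, eBayes with intensity trend, 2-sided, Benjamini-Hochberg adjustment over 8228 non-control probe sets, threshold 0.05) in R 4.3.3; other steps used Python 3.11.15, numpy 2.4.6 and pandas 2.3.3. The steps were tested on simulated data. The rule for named genes was every member, Xiap, up to 4 genes per direction of each list past 1.5-fold or the 2 largest, and the 5 genes nearest in pattern to the member with the widest range. Some list genes that the rule allows, such as Egln1, Mxi1, Edn1 and Hmox1, were left out of the text. Pkm, Gapdh and Pfkp, and the genotype values of Pfkm and Slc2a1, were given after their values were seen, as the members' partners in the pathway. The cell type markers Thy1, Pdgfrb, S100a4 and Tubb3 were also given after their values were seen, as were Xist and Eif2s3y from earlier results. The members, lists and tests were chosen with earlier results of these data known.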

Additional observations from a re-analysis of the deposited data

Results flagged for a closer look

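Hk1 was the member whose TNF ratio had opposite signs in the genotypes. It was 1.46-fold lower with TNF in knockout cells (7715 with and 11273 without TNF) and 1.08-fold higher in wild-type cells (10593 with and 9816 without TNF). The difference of log2 response, knockout minus wild-type, was -0.657, and it was -0.89 to -0.59 over the 8 settings tried. Among these, only quantile normalization and equal medians could move it by more than rounding. The difference of -0.657 lies within 0.81, the limit that such a difference kept to between the probe sets of 9 in 10 genes. Of 6174 genes, 15.9% passed 1.5-fold in this difference in either direction, and 1 of the 8 members did. The share of all genes with TNF ratios of opposite sign was not computed. The knockout ratio alone lies just past the 1.44-fold limit for its comparison. The difference was not tested, since each group has 1 array, and Hk1 had 1 probe set, so no second reading of it was available.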

How the results depend on the processing

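Of 111 recomputed summary values of the members, 98 kept to their reported value within the spread of probe sets or within 1.5 times. Many of these could not change. The lowest measured member signal was 327 and the highest floor tried 171.2, so other floors left the member ratios as they were. Omitting the rescaling, whose factors round to 1.0, also left them so. For medians the spread allowed was the SD of 1 probe set, so sizeable shifts also counted as kept. With equal medians the members' median log2 knockout to wild-type ratio with TNF was 0.23 (-0.12 over all genes), against 0.44 (0.07). Their median log2 TNF ratio in wild-type cells was 0.48 (0.17 over all genes), against 0.20 (-0.10). Their median difference of TNF response was -0.30 with equal medians and 0.01 with quantile normalization, against -0.07. With 2-fold in place of 1.5-fold, the members higher in the knockout numbered 1 with TNF and 2 without, and those lower 0 in both states. Of all genes, 5.62% and 4.55% were higher and 5.01% and 4.7% lower, in the same order. The members higher with TNF numbered 0 in both genotypes, where 1.48% of all genes were in knockout and 2.64% in wild-type cells. With equal medians, 2 members were at least 1.5-fold lower in the knockout with TNF and in wild-type cells 3 passed 1.5-fold upwards with TNF. The shares of all genes were not computed for this scaling. The limma genotype effect was called for 4 member probe sets with equal medians (22.7% of all probe sets) and 3 with no intensity trend (12.8%). The TNF effect was called for 1 (Hk2) with quantile normalization (2.52%), equal medians (6.04%) and probe sets above the floor on all arrays (3.23%). The cause was not tested. All 8 members kept the sign of both knockout to wild-type ratios in every setting, and 6 that of the TNF ratio in each genotype; Aldoa and Pgam1 did not. Over the brighter and dimmer probe sets together, the mean log2 TNF ratio of Aldoa in knockout cells was -0.21. No paired analysis was possible because each group has 1 array and the labels give no replicate numbers. The 9 measured member probe sets were above the floor on all arrays, so the floor does not set their ratios.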

Other observations

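Pathways that branch from glycolysis or follow it held single genes that differed between the cultures. Of all measured genes, 11.9% were at least 1.5-fold higher in the knockout without TNF and 15.9% with TNF. The shares at least 1.5-fold lower were 12.4% and 11.7%. Of 9 measured genes of the pentose phosphate pathway, 2 were at least 1.5-fold higher in unstimulated knockout cells and 1 with TNF, and none was lower, with median log2 ratios of 0.27 and 0.26. Of these, Prps2 was at least 1.57-fold higher without TNF, since its unstimulated wild-type signal of 70.3 lay below the floor. Prps1, which makes the ribose precursor of nucleotides, had 1293 in unstimulated knockout and 718 in unstimulated wild-type cells and was 1.80-fold higher without and 1.81-fold higher with TNF (limma effect 0.85, SE 0.12, adjusted p = 0.00567). Of 22 measured genes of pyruvate dehydrogenase and the citric acid cycle, 2 were higher and 2 lower without TNF, and 2 were higher and 1 lower with TNF, with median log2 ratios of 0.05 and 0.02. Cs, the citrate synthase gene, had 3011 in unstimulated knockout and 1780 in unstimulated wild-type cells, and its ratios were 1.69 and 1.70 (limma effect 0.76, SE 0.10, adjusted p = 0.00368). The succinyl-CoA ligase genes went opposite ways, Suclg2 1.66-fold higher and Sucla2 1.53-fold lower in unstimulated knockout cells. None of 4 measured gluconeogenesis genes passed 1.5-fold without TNF, and 1, G6pc3, did with TNF at 1.60-fold.

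With TNF, Myc, a transcription factor gene whose product binds the E-box, had 314 in knockout and 767 in wild-type cells, and without TNF 266 in knockout and 259 in wild-type cells. Its TNF ratio was 1.18 in knockout and 2.96 in wild-type cells, and the difference was not tested. The muscle phosphofructokinase gene Pfkm was 1.53-fold lower with TNF in knockout and 1.74-fold lower in wild-type cells (limma adjusted p = 0.107).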
